A study of Drosophila melanogaster with 12 samples.

Results

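The genes described here are the 10 Cyp6 genes of Drosophila melanogaster that lie outside the Cyp6a subfamily: Cyp6d2, Cyp6d4, Cyp6d5, Cyp6g1, Cyp6g2, Cyp6t1, Cyp6t3, Cyp6u1, Cyp6v1 and Cyp6w1. They were taken by their symbol in the platform table, out of 11982 genes that have a probe set naming them alone, and each had 1 such probe set. A further probe set names Cyp6v1 together with shn and was assigned to neither gene. RNA of adult flies had been hybridised to 12 oligonucleotide arrays, in 4 groups of 3. The groups were wild type on sucrose, wild type on phenobarbital, mutant on sucrose and mutant on phenobarbital. Wild type is Canton S (CS in the titles). The mutant carries E25 in its titles and was taken to be the mutant of DHR96, the product of the gene Hr96, because the series names no other strain. All flies had gone without food overnight before feeding, and the phenobarbital diet held 0.3% of the drug in sucrose. The labels leave out sex, age, the kind of allele and the genetic background of the mutant, so the allele and the background cannot be told apart here. Nor do they tell if the 3 arrays of a group hold RNA of separate cultures, and the p-values therefore reflect only how these arrays vary, which could be technical.

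Cyp6 enzymes are cytochrome P450s of the CYP3 clan, heme proteins of the endoplasmic reticulum that add oxygen to small lipophilic molecules with electrons passed on by P450 reductase and cytochrome b5. Insects use many of them to clear plant toxins and insecticides, chiefly in midgut, Malpighian tubules and fat body, and a few act on hormones. Phenobarbital is a barbiturate that induces such enzymes in flies and mammals, and DHR96 belongs to the family of nuclear receptors that in mammals includes the xenobiotic sensors PXR and CAR.

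Values are log2 of the deposited intensity. A value under 4, an intensity of 16, is called dim. A gene is said to have been called, to have risen or to have fallen where the adjusted p of limma, over all 18769 probe sets, was under 0.05 and the change at least 1.5-fold. Between 44.4% and 45.6% of probe sets were dim on each array, and the array medians lay between intensities of 38.5 and 47.5 before log2 was taken. The targeted gene separated the labels, since Hr96 read 8.20 to 8.85 on the 6 wild-type arrays and 9.91 to 10.30 on the 6 arrays labelled mutant. It was thus higher, not lower, in the latter, and this transcript level does not show whether the receptor works; every direction given for the mutant is that of the arrays labelled mutant.

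Phenobarbital raised Cyp6w1, Cyp6d5 and Cyp6g1 in both genotypes and raised Cyp6d4 and Cyp6t1 past the threshold in the mutant. None of the 10 genes fell. Cyp6d2, Cyp6u1 and Cyp6v1 were measured well above the dim level and were not called in either genotype. Cyp6g2 and Cyp6t3 were dim on all 12 arrays. Levels of different genes are not compared, because each probe set has its own response.

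**Figure D1:**
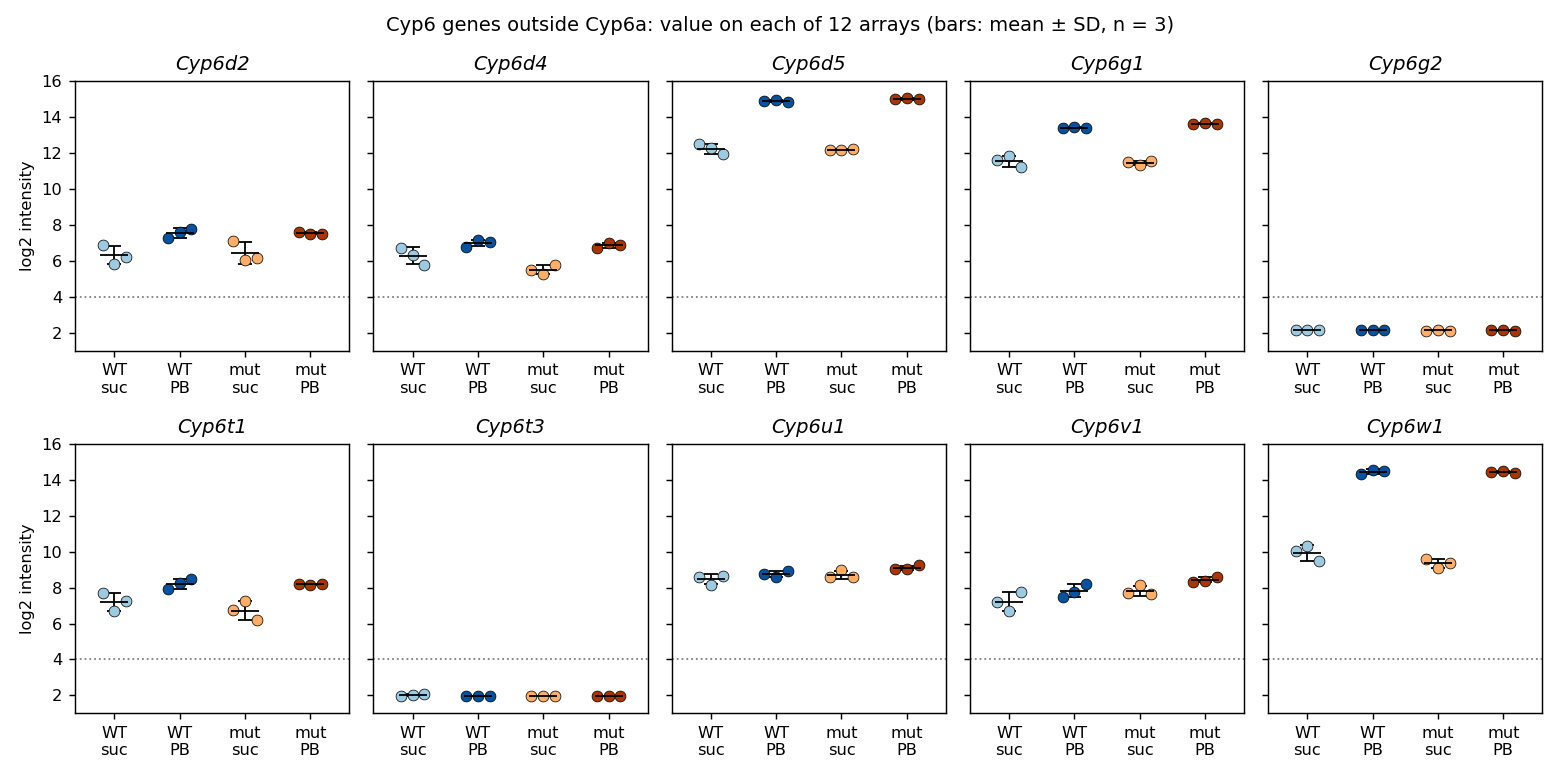
Log2 intensity (vertical axis) of the 10 genes on each of the 12 arrays, by group (horizontal axis: WT, wild type; mut, mutant; suc, sucrose; PB, phenobarbital), with the mean and SD of 3 arrays as bars and the dim level of 4 as a dotted line. Cyp6w1 rises most, Cyp6d5 and Cyp6g1 follow, and Cyp6g2 and Cyp6t3 stay near 2 throughout. Diets do not overlap in either genotype for Cyp6w1, Cyp6d5, Cyp6g1, Cyp6d2, Cyp6d4 and Cyp6t1, nor in the mutant for Cyp6u1 and Cyp6v1.

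Cyp6w1, an enzyme linked to resistance against DDT, had the largest rise of the 10 genes. Its wild-type arrays read 10.06, 10.32 and 9.45 on sucrose and 14.30, 14.54 and 14.50 on phenobarbital. The mutant arrays read 9.59, 9.10 and 9.38 on sucrose and 14.41, 14.46 and 14.37 on phenobarbital. Every array on the drug lay at least 3.97 log2 units above every array without it. In wild type the rise was 22.6-fold (log2 change 4.50 ± 0.20, SE; 95% interval 16.4 to 31.2-fold; limma adjusted p = 3.7e-06). The mutant showed a 33.3-fold rise (5.06 ± 0.20; 24.1 to 45.9-fold; limma adjusted p = 1.6e-06).

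Cyp6d5 rose 6.34-fold in wild type and 7.08-fold in the mutant. On sucrose the wild-type arrays read 12.48, 12.29 and 11.92 and the mutant arrays 12.18, 12.16 and 12.22. On phenobarbital they read 14.90, 14.96 and 14.83 in wild type and 14.98, 15.06 and 14.98 in the mutant. The diets did not overlap, and the 3 mutant arrays spanned 0.07 on sucrose and 0.08 on phenobarbital. The log2 changes were 2.66 ± 0.12 (SE; limma adjusted p = 3e-06) and 2.82 ± 0.12 (limma adjusted p = 1.7e-06). On phenobarbital this gene lay only 0.58 to 0.80 log2 units below the brightest probe set of the array, and Cyp6w1 1.09 to 1.32 units below it. Whether the scale compresses changes at that height was not tested.

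Cyp6g1 is the gene whose overexpression gives field strains resistance to DDT and neonicotinoids. It read 11.60, 11.82 and 11.20 in wild type on sucrose and 13.39, 13.43 and 13.41 on phenobarbital. In the mutant it read 11.50, 11.33 and 11.54 on sucrose and 13.61, 13.64 and 13.62 on phenobarbital. The wild-type sucrose arrays spread over 0.62 log2 units, while each phenobarbital group stayed within 0.04. The rise was 3.66-fold in wild type (1.87 ± 0.13, SE; 95% interval 2.97 to 4.50-fold; limma adjusted p = 4.8e-05). The mutant showed a 4.49-fold rise (2.17 ± 0.13; 3.65 to 5.52-fold; limma adjusted p = 1.8e-05).

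These 3 calls among 10 genes in wild type stand beside a background of 2.27% of all probe sets called higher and 2% called lower. Among the 10341 probe sets with a mean of 4 or more, 4% were called higher. In the mutant 5 of the 10 were called higher, beside 3.08% of all probe sets called higher, 1.53% called lower and 5.36% called higher among those with a mean of 4 or more. Called higher in both genotypes were 3 of the 10, beside 2.15% of all probe sets. In wild type the 10 genes had a median log2 change of 0.86, next to 0.017 for all probe sets. In the mutant the medians were 1.22 and 0.0035. All 3 arrays on phenobarbital lay above all 3 on sucrose for 6 of the 10 genes in wild type, beside 7.11% of all probe sets. In the mutant this held for 8 of the 10, beside 15.3%.

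**Figure D2:**
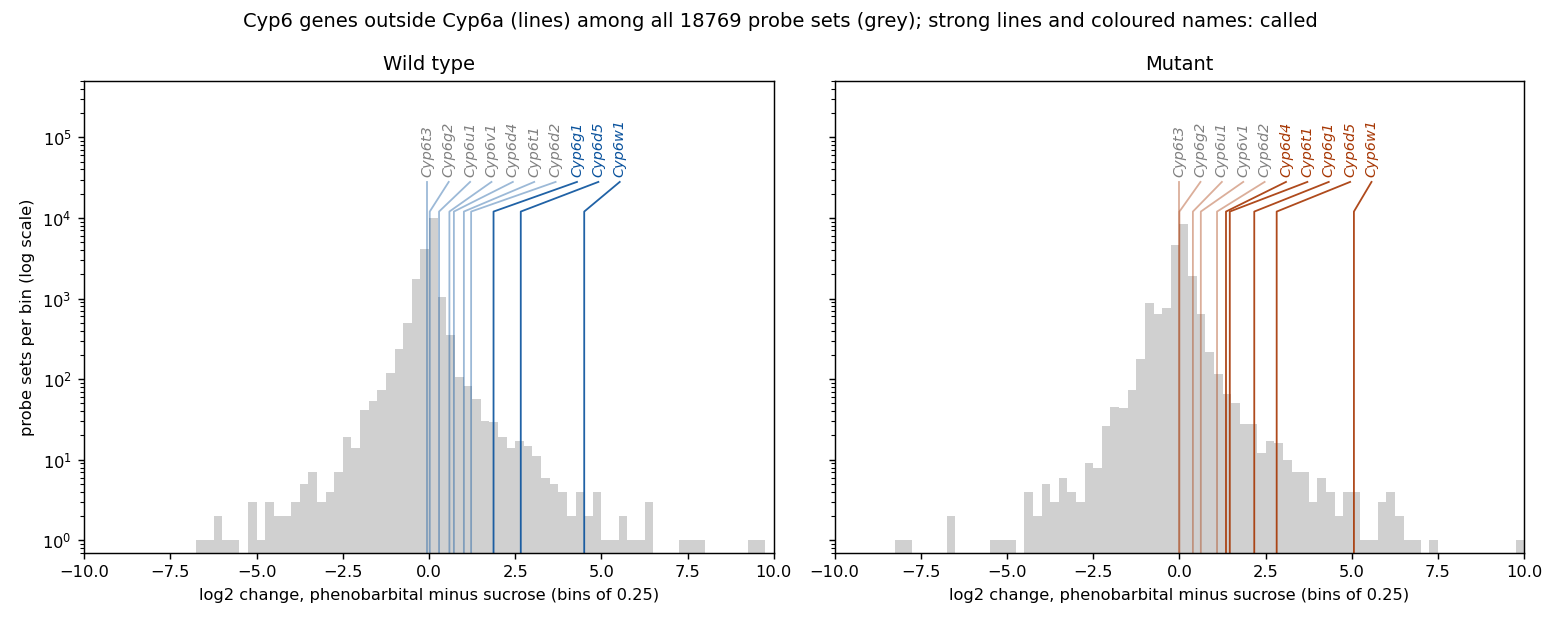
Number of probe sets (vertical axis, log scale) by log2 change on phenobarbital (horizontal axis, bins of 0.25) for wild type and mutant, with the 10 genes as vertical lines and called genes in strong colour. Cyp6w1 lies in the sparse right tail at 4.50 and 5.06, and Cyp6g2 and Cyp6t3 lie in the central peak.

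Cyp6d4 was called in the mutant only. Its wild-type arrays read 6.71, 6.34 and 5.77 on sucrose and 6.78, 7.14 and 7.06 on phenobarbital. The mutant arrays read 5.48, 5.27 and 5.78 on sucrose and 6.70, 7 and 6.89 on phenobarbital. The diets did not overlap in either genotype, though in wild type the highest sucrose array came within 0.07 of the lowest phenobarbital array. The rise in the mutant was 2.55-fold (1.35 ± 0.23, SE; limma adjusted p = 0.0078), and the estimate in wild type was 1.65-fold (0.72 ± 0.23; limma adjusted p = 0.15). The difference between these values was 0.63 ± 0.33 (95% interval -0.11 to 1.37; limma adjusted p = 0.84), so the genotypes were not shown to differ. Without wild-type sucrose replicate 1, the gene was also called in wild type (0.94; limma adjusted p = 0.047). Without wild-type sucrose replicate 3, its wild-type estimate fell to 0.47 (limma adjusted p = 0.25).

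Cyp6t1 was likewise called in the mutant only, and that call was fragile. It read 7.69, 6.69 and 7.23 in wild type on sucrose and 7.92, 8.25 and 8.46 on phenobarbital. The mutant read 6.75, 7.24 and 6.17 on sucrose and 8.20, 8.13 and 8.21 on phenobarbital. No sucrose array reached a phenobarbital array of its genotype, and the sucrose arrays spread over 0.99 log2 units for wild type and 1.07 for the mutant. The rise in the mutant was 2.75-fold (1.46 ± 0.30, SE; limma adjusted p = 0.022), and the estimate in wild type was 2.01-fold (1.01 ± 0.30; limma adjusted p = 0.12). Leaving out mutant sucrose replicate 1 or 3, or any 1 of the 3 mutant phenobarbital arrays, ended the mutant call, with limma adjusted p from 0.069 to 0.079. The same happened in the fit to the 6 mutant arrays alone (0.056) and with the replicate number as a block (0.065). In wild type the gene was called with estimated array weights, whose estimation did not converge (1.16; limma adjusted p = 0.045) and without the dim probe sets (1.01; limma adjusted p = 0.05 after rounding). Its responses differed between genotypes by 0.45 ± 0.43 (95% interval -0.52 to 1.43).

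Cyp6d2 was not called, with estimates of 2.33-fold in wild type and 2.13-fold in the mutant. Its arrays read 6.87, 5.85 and 6.23 in wild type on sucrose and 7.25, 7.58 and 7.79 on phenobarbital. In the mutant they read 7.11, 6.02 and 6.16 on sucrose and 7.59, 7.49 and 7.49 on phenobarbital. The diets did not overlap in either genotype, and replicate 1 was the highest sucrose array in both. The log2 estimate was 1.22 ± 0.32 in wild type (SE; 95% interval of the fold 1.40 to 3.88; limma adjusted p = 0.07). In the mutant this came to 1.09 ± 0.32 (1.28 to 3.54; limma adjusted p = 0.11). The gene was called in wild type without wild-type sucrose replicate 1 (1.5; limma adjusted p = 0.036) or mutant sucrose replicate 1 (1.22; 0.027). Without wild-type sucrose replicate 2 the wild-type estimate was smaller (0.99; limma adjusted p = 0.22). In the mutant Cyp6d2 was called without mutant sucrose replicate 1 (1.43; limma adjusted p = 0.024). Without mutant sucrose replicate 3 its estimate there was smaller (0.95; limma adjusted p = 0.34).

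Cyp6u1 and Cyp6v1 had the smallest estimates among the 8 genes above the dim level. Cyp6u1 read 8.58, 8.16 and 8.66 in wild type on sucrose, 8.74, 8.59 and 8.94 on phenobarbital, and 8.56, 8.97 and 8.61 against 9.05, 9.03 and 9.24 in the mutant. Its log2 estimates were 0.29 ± 0.16 for wild type (SE; 95% interval -0.07 to 0.65) and 0.39 ± 0.16 for the mutant (0.03 to 0.75). Diets overlapped in wild type and narrowly did not in the mutant. Cyp6v1 read 7.20, 6.71 and 7.76 in wild type on sucrose, 7.50, 7.76 and 8.20 on phenobarbital, and 7.68, 8.13 and 7.62 against 8.33, 8.36 and 8.60 in the mutant. Its estimates were 0.59 ± 0.28 (95% interval -0.03 to 1.22) and 0.62 ± 0.28 (-0.01 to 1.24). For both genes the limma adjusted p lay between 0.24 and 0.48. The intervals allow a fold of up to 1.57 and 1.69 for Cyp6u1 and up to 2.32 and 2.36 for Cyp6v1.

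**Figure D3:**
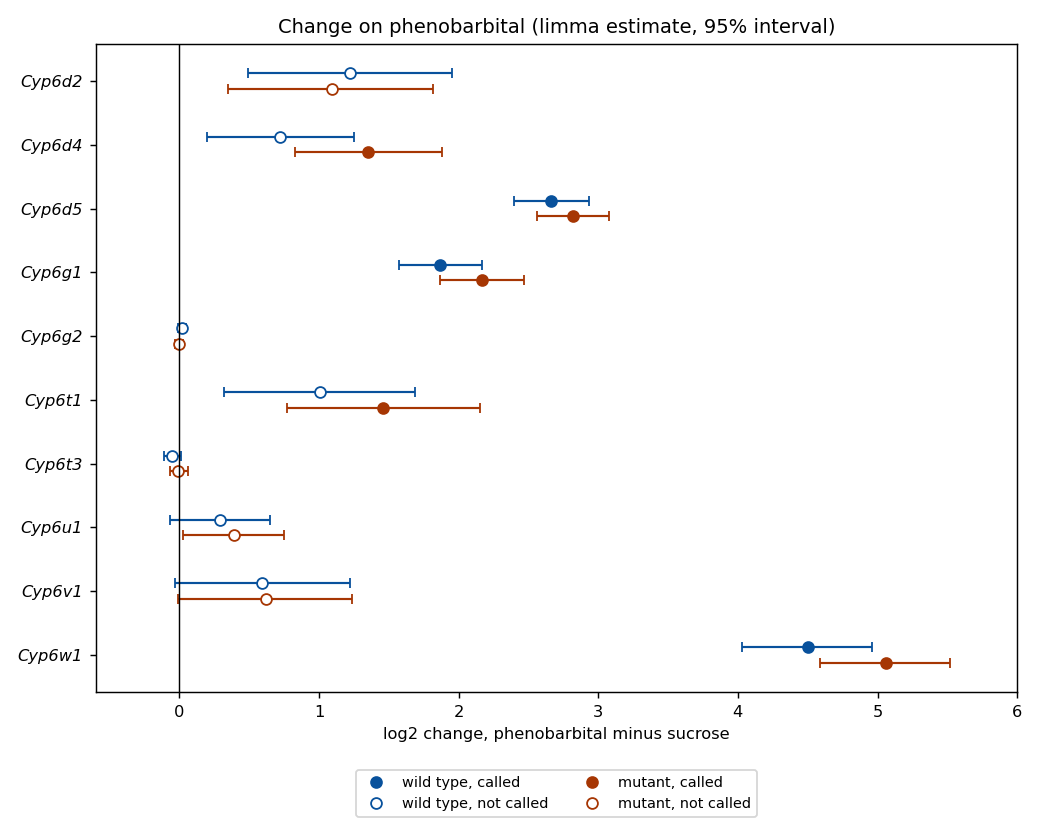
Log2 change on phenobarbital (horizontal axis) of the 10 genes in wild type (blue) and mutant (brown), as limma estimates with 95% intervals; filled points were called. The estimates run from about 0 in Cyp6g2 and Cyp6t3 to 4.50 and 5.06 in Cyp6w1, and the intervals of both genotypes overlap for every gene.

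Cyp6g2 and Cyp6t3 gave no signal to compare. Cyp6g2, whose forced expression also gives insecticide resistance, read 2.12 to 2.17 over all 12 arrays. Cyp6t3, needed for ecdysone synthesis in the larval prothoracic gland, read 1.95 to 2.08. No fold is given for these genes, since both diets lay below the dim level, and a low transcript level and a probe set that does not respond cannot be told apart. In the Release 6 plus ISO1 MT gene table, Cyp6g1, Cyp6g2 and Cyp6t3 follow each other directly as coding genes. Cyp6g1 rose, while those other two gave no signal on either diet.

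The coding genes on either side of the 10 members that are not members themselves numbered 16, and all were measured. This set was added after the members' values were known. Their mean over the 12 arrays was under 4 for 7 of the 16, which thus gave no signal to compare. By limma, 0 of the 16 were called on phenobarbital in either genotype, beside 4.27% of all probe sets called either way in wild type and 4.62% in the mutant, a share at which few or no calls among 16 are no result about these genes. At an unadjusted limma p under 0.05, 1 of the 16 differed between diets in wild type, as did 2619 of the 18769 probe sets. In the mutant 5 of the 16 did, beside 3300 of the 18769 probe sets. The difference between these shares was not tested. Among the 9 brighter neighbours the log2 differences ran from -0.36 to 0.33 in wild type and from -1.05 to 0.44 in the mutant. Those of Cyp6w1, CG14589 and CG8343, were -0.32 (limma adjusted p = 0.58) and -0.08 (0.7) in wild type and -0.87 (0.22) and -0.35 (0.21) in the mutant. Those of Cyp6d5, rdx and CG3061, were 0.03 (limma adjusted p = 0.91) and 0.33 (0.052) in wild type, and in the mutant CG3061 was at 0.40 (0.02), short of 1.5-fold. The lowest value in the mutant was that of CG1835, beside Cyp6v1 (limma adjusted p = 0.18).

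On sucrose, none of the 10 genes was called for a difference between genotypes, beside 0.213% of all probe sets called either way. At an unadjusted p under 0.05, 3 of the 10 differed, as did 1817 of the 18769 probe sets. The arrays overlapped for all 10 genes, while 10.5% of all probe sets did not overlap. Cyp6d4 had an estimate 1.7-fold lower in the mutant (-0.76 ± 0.23, SE; 95% interval -1.29 to -0.24; limma adjusted p = 0.27). For Cyp6w1 it was 1.5-fold lower (-0.59 ± 0.20; -1.05 to -0.12; limma adjusted p = 0.36). Wild-type sucrose replicate 3 had the lowest value of its group for Cyp6d4, Cyp6d5, Cyp6g1 and Cyp6w1. Without it both Cyp6d4 (-1.02; limma adjusted p = 0.043) and Cyp6w1 (-0.83; 0.038) were called lower in the mutant. Cyp6d5 and Cyp6g1 differed by -0.05 (95% interval -0.31 to 0.22) and -0.08 (-0.38 to 0.21) between genotypes on sucrose.

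On phenobarbital, 0 of the 10 genes was called by limma between genotypes, 0 had an unadjusted p under 0.05, and 0.117% of all probe sets were called either way. The estimates lay between -0.13 and 0.11 on the log2 scale for Cyp6d2, Cyp6d4, Cyp6d5, Cyp6t1 and Cyp6w1. Cyp6g1 was 0.21 higher in the mutant (95% interval -0.09 to 0.51), Cyp6u1 0.35 higher (-0.01 to 0.71) and Cyp6v1 0.61 higher (-0.01 to 1.24). For Cyp6d5, Cyp6g1, Cyp6u1 and Cyp6v1 all mutant arrays lay above all wild-type arrays on this diet, and for the dim Cyp6g2 and Cyp6t3 all lay below. These 6 of 10 stand beside 51.5% of all probe sets without overlap on this diet, so the lack of overlap here says little about a gene.

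**Figure D4:**
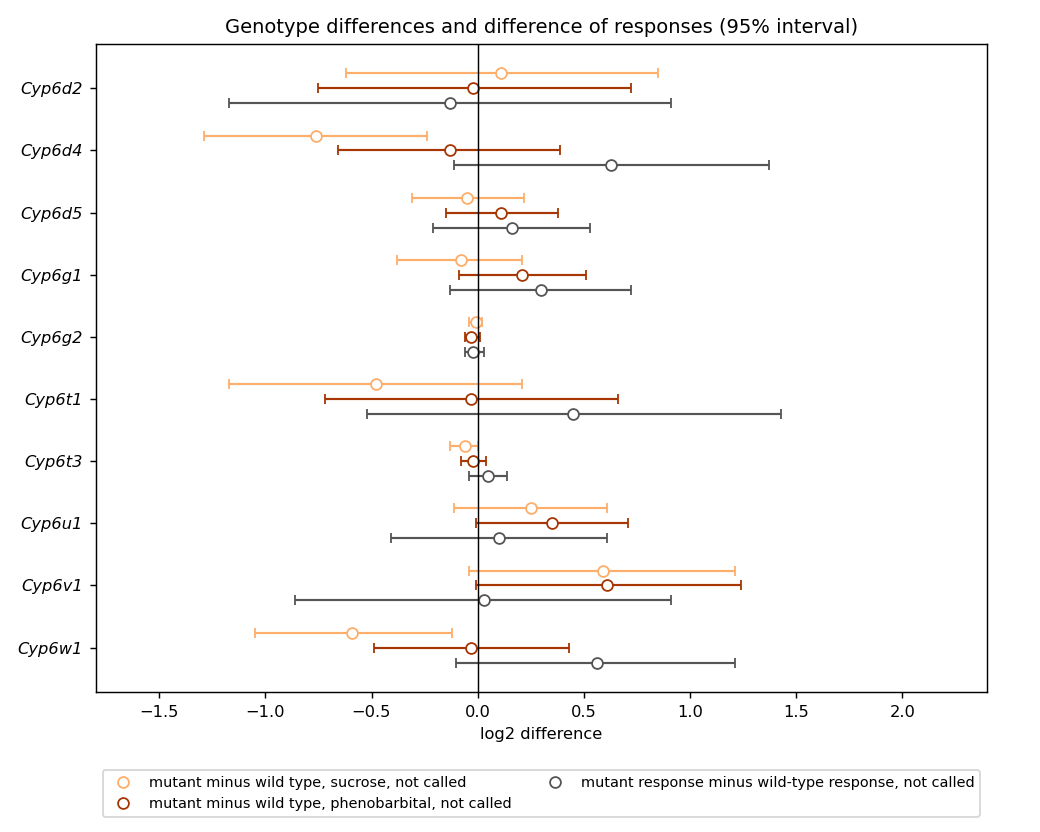
Log2 difference (horizontal axis) of the 10 genes between mutant and wild type on sucrose and on phenobarbital, and the difference between the phenobarbital changes of both genotypes, with 95% intervals; open points were not called. Cyp6d4 and Cyp6w1 lie below 0 on sucrose and near 0 on phenobarbital, and no point was called.

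The response to the drug was not shown to depend on genotype for any of the 10 genes. Limma called 0 of the 10 and 0% of all probe sets for the difference between responses, with 0 of the 10 and 624 probe sets at an unadjusted p under 0.05. The largest estimates were Cyp6d4 (0.63), Cyp6w1 at 0.56 ± 0.29 (SE; 95% interval -0.10 to 1.21) and Cyp6t1 (0.45). For Cyp6g1 the difference was 0.30 ± 0.19 (-0.13 to 0.72) and for Cyp6d5 0.16 ± 0.16 (-0.21 to 0.53). The intervals thus allow responses up to 2.32-fold larger in the mutant for Cyp6w1 and up to 1.44-fold for Cyp6d5. This difference and the difference on sucrose rest partly on the same arrays.

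For most of the 8 genes above the dim level, replicate arrays lay closer together on phenobarbital than on sucrose. In wild type the SD of 3 arrays was smaller on phenobarbital for all 8 of them, beside 63.4% of the 10341 probe sets with a mean of 4 or more. The SDs ran from 0.27 to 0.53 on sucrose and from 0.022 to 0.35 on phenobarbital. In the mutant it was smaller for 7 of 8, all but Cyp6d5, beside 62.5%, with SDs of 0.033 to 0.59 and of 0.016 to 0.15. Over all probe sets, dim ones included, the median SD was 0.11 on both diets in wild type, and 0.078 on sucrose and 0.057 on phenobarbital in the mutant. No test was made of these differences. On sucrose the arrays that were high for one gene were not always high for another. Wild-type sucrose replicate 3 was lowest for Cyp6d4, Cyp6d5, Cyp6g1 and Cyp6w1 yet highest for Cyp6u1 and Cyp6v1. Mutant sucrose replicate 2 was lowest for Cyp6d2, Cyp6d4, Cyp6d5, Cyp6g1 and Cyp6w1 and highest for Cyp6t1, Cyp6u1 and Cyp6v1.

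For each called gene, the 3 genes with the nearest pattern were found as those with the smallest root-mean-square difference of log2 values over the 12 arrays. Each gene was first centred on its own mean, and 9272 probe sets with a mean of 4 or more were searched for each. The arrays share 4 groups, so likeness mostly reflects the size of the change on phenobarbital. Nearest to Cyp6w1 were CG6908 (0.18), the UDP-glycosyltransferase gene Ugt37A2 (0.18) and Cyp6a2 (0.27). Nearest to Cyp6d5 were CG18547 (0.11), Reg-2 (0.14) and the juvenile hormone epoxide hydrolase gene Jheh2 (0.14). Nearest to Cyp6g1 were CG5577 (0.079), CG10553 (0.092) and the maltase gene Mal-A1 (0.11). These 3 changed by 1.88 to 1.95 in wild type and 2.09 to 2.17 in the mutant, next to 1.87 and 2.17 for Cyp6g1. Nearest to Cyp6d4 were Ugt303A1 (0.17), CG33514 (0.18) and the sulfotransferase gene St3 (0.20). Cyp6t1 had the loosest matches, Jhbp6 (0.25), GILT2 (0.27) and CROT (0.27).

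**Figure D5:**
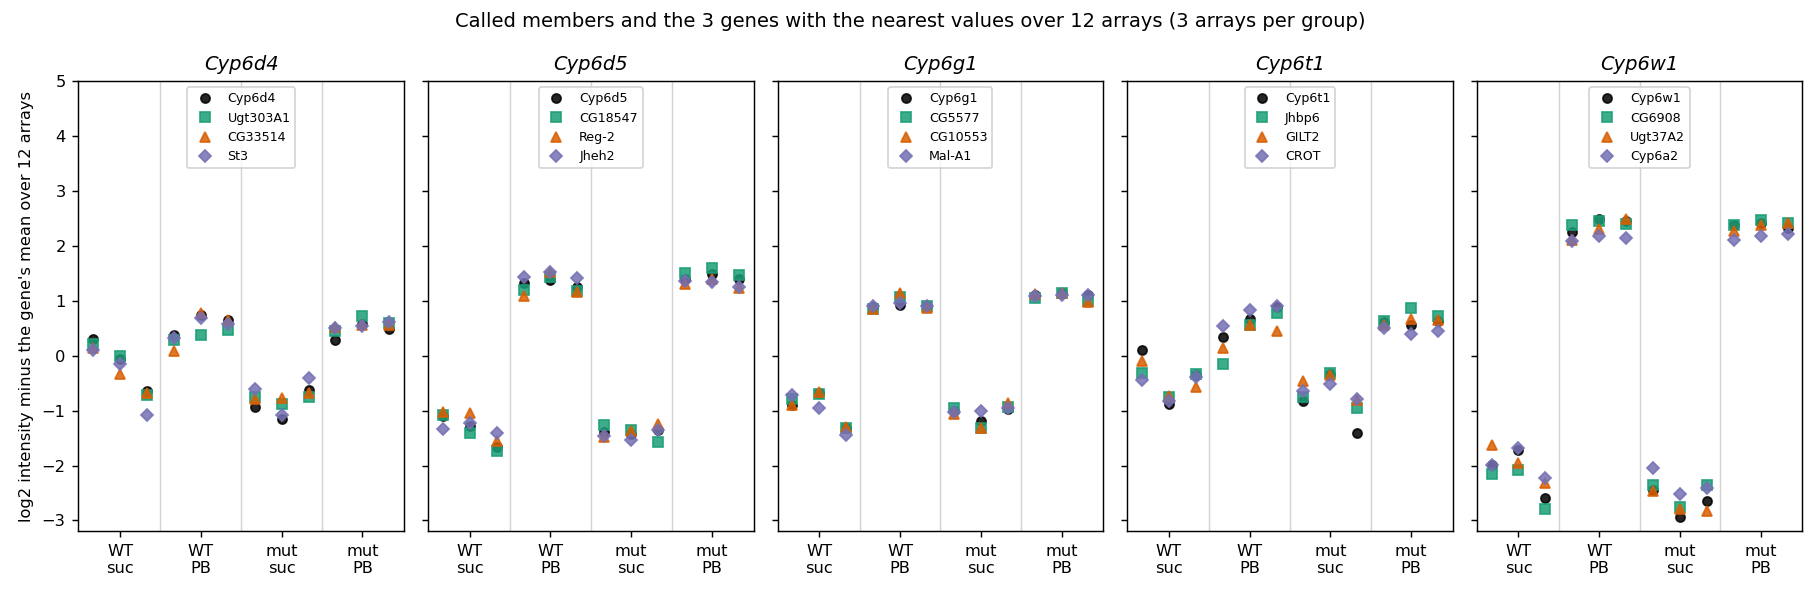
Log2 intensity minus each gene's mean over 12 arrays (vertical axis) for the 5 called genes (black circles) and their 3 nearest genes (coloured symbols), with 3 arrays per group along the horizontal axis (labels as WT, wild type; mut, mutant; suc, sucrose; PB, phenobarbital). The symbols nearly coincide for Cyp6g1 and scatter most for Cyp6t1.

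All called genes of the other P450 groups listed here rose. Of 13 Cyp6a genes, 8 rose and 0 fell in wild type and 10 rose and 0 fell in the mutant. Among them Cyp6a8 rose most, by 9.41 ± 0.11 and 9.79 ± 0.11 (log2, SE), from dim means of 2.88 and 2.83 on sucrose. Cyp6a21 rose by 5.65 ± 0.15 and 6.09 ± 0.15, and Cyp6a2 by 4.11 ± 0.15 and 4.48 ± 0.15. Of 14 other genes of the CYP3 clan, 6 rose and 0 fell in each genotype. The largest of these rises was that of Cyp309a1, by 5.4 ± 0.17 and 5.91 ± 0.17, from dim means of 3.14 and 3.27 on sucrose. Cyp28a5 rose by 1.15 ± 0.19 and 1.62 ± 0.19. The rises of Cyp6a8, Cyp6a21 and Cyp309a1 were thus larger than that of Cyp6w1 in both genotypes. The share called was thus 3 of 10 here and 8 of 13 in Cyp6a in wild type, and 5 of 10 and 10 of 13 in the mutant. The difference between these shares was not tested. Median changes were 0.86 for the 10 genes, 0.91 for Cyp6a and 0.39 for the other CYP3 genes in wild type. In the mutant they were 1.22, 1.02 and 0.69, so the 10 genes lay below Cyp6a in wild type and above it in the mutant. Dim in all groups, with no signal to compare, were 2 of the 10, 2 of the 13 and 5 of the 14 genes. No gene of these families was called between genotypes on either diet.

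Of 5 measured electron partners of P450s, 3 rose in wild type and 4 in the mutant, with no fall. Cyt-b5, which hands electrons to P450s, rose by 1.27 ± 0.06 and 1.29 ± 0.06 (log2, SE; limma adjusted p = 5.2e-06 and 4.1e-06), and CG5946 by 0.89 ± 0.09 and 1 ± 0.09. The P450 reductase gene was not analysed here. Of 7 genes of heme synthesis, 0 were called in wild type and only Alas, the first enzyme of the pathway, in the mutant (0.79 ± 0.12; limma adjusted p = 0.0043). Of 6 regulators linked to xenobiotic responses, Keap1, the sensor that holds back the factor encoded by cnc, rose by 2.23 ± 0.26 and 2.52 ± 0.26 on phenobarbital, and the others were not called for the drug. In pathways of hormone synthesis, 0 of 9 ecdysone genes and 0 of 3 juvenile hormone synthesis genes were called by limma in any comparison; 6 of the 9 were dim in all groups.

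In whole flies, a higher level per cell and more cells of an expressing tissue cannot be told apart. The intensities of 25 measured midgut digestive genes, of 31 listed, summed to 134000 to 148000 in wild type on sucrose and 148000 to 155000 on phenobarbital, and to 130000 to 139000 against 147000 to 156000 in the mutant. In this list 9 genes rose and 7 fell in wild type and 9 rose and 8 fell in the mutant; 3 of the 25 were dim in every group. The 6 measured tubule markers, of 9 listed, summed to 3680 to 4060 against 3560 to 4150 in wild type and 3210 to 3890 against 3620 to 4070 in the mutant. Of these, ry and salt rose and Irk3 fell in each genotype. The 4 measured fat body markers, of 5 listed, summed to 7900 to 8800 against 11500 to 12600 in wild type and 7880 to 10100 against 12500 to 14800 in the mutant. Of these 4 genes 2 were dim in all groups, and only Lsp2, a larval serum storage protein, was called. It rose from a mean of 5.81 on sucrose to 11.81 on phenobarbital in the mutant, by 6 ± 0.80 (log2, SE; limma adjusted p = 0.0019), more than any of the 10 genes. It was also 6.52 ± 0.80 higher in the mutant than in wild type on phenobarbital (limma adjusted p = 0.023). The fat body sums were higher on phenobarbital in both genotypes, and the tubule sums overlapped between diets. In wild type on sucrose 3 of the 4 fat body markers were dim. Sums weigh the brightest genes most, so those of the fat body rest on few genes. Their part in the rises was not tested.

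Markers of the male accessory gland and of eggs had negative median changes on phenobarbital. The median log2 change of the accessory gland genes was -1.05 in wild type and -1.24 for mutant flies, and that of the egg and yolk genes -2.49 and -1.78. Among the latter, the vitelline membrane genes Vm34Ca and Vm26Aa fell 106-fold and 75.5-fold in wild type and 231-fold and 289-fold in mutant flies. The gene fit, listed with them though not itself a gene of eggshell or yolk, fell 47-fold in wild-type and 105-fold in mutant flies. On phenobarbital these 3 genes had group means of 2.81 to 4.29, near or below the dim level, so their folds depend on the background model. The 13 measured accessory gland genes, of 15 listed, summed to 93900 to 126000 on sucrose and 39500 to 69500 on phenobarbital in wild type, and to 90200 to 140000 against 35000 to 61100 in the mutant. Of the 13, 3 fell in wild-type flies and 7 in mutant flies. The 17 measured genes of the egg and yolk list, of 20 listed, summed to 58400 to 88900 against 45100 to 68000 in wild type and 86000 to 122000 against 78500 to 104000 in the mutant, with 3 falls in each. These falls include that of fit. The 19 testis genes summed to 36200 to 61300 against 29900 to 48600 in wild type and 37400 to 61000 against 21600 to 34500 in the mutant, with 1 fall and 0 by limma. The sums of the egg genes, which weigh the brightest genes most, overlapped between diets in both genotypes, and those of the testis genes in wild type. Between genotypes, the median log2 difference of the egg and yolk genes was 1.67 on sucrose and 0.95 on phenobarbital, higher in the mutant, with 0 called. That of the accessory gland genes was 0.08 and -0.14, also with 0 called. The part of these tissues in the values of the 10 genes, between diets or between genotypes, was not tested.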

How the data were processed

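The authors deposited 1 table of normalized intensity values per probe set, made with GCRMA (background correction, normalization between arrays and summary of a set's probes), per the submitters' processing notes; the GCRMA version was not stated. The values ran from 2.46 to 52446 and were read as linear, and log2 was taken here with no further scaling. Of 18769 probe sets, 13647 named 1 gene, 402 several and 4720 none; 13544 matched the Release 6 plus ISO1 MT gene table by Entrez identifier and 0 symbols changed.

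limma 3.58.1 in R 4.3.3 was fitted to all probe sets and 12 arrays, with 1 mean per group, no covariates and moderated variances (8 degrees of freedom from residuals, 8.8 in total). Intervals of 95% come from that fit and are not adjusted. p-values were adjusted by Benjamini-Hochberg over all probe sets. The script was tested on simulated data. Named genes were the 10 members, up to 3 called genes per list and comparison, and the 3 nearest genes of each called member, with Hr96 as the label check; chromosomal neighbours lie outside this rule and were chosen after values were seen; the members, the lists of 161 other symbols (141 measured) and the tests were chosen with earlier results of these data known. Only between the groups on phenobarbital did all 3 replicate numbers deviate together with r over 0.1 (r of 0.26, 0.30 and 0.65). This was read from the data and not the labels. Other pairs of groups were mixed, such as wild type on sucrose and on phenobarbital (-0.46, 0.58 and 0.6). With the number as a block, none of the 10 genes was called between genotypes on phenobarbital either. Figures used Python 3.11.15 and matplotlib 3.10.9. Alternatives are given in the closing section. The number of arrays limits the precision.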

Additional observations from a re-analysis of the deposited data

How the results depend on the processing

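Of 980 recomputed changes of single genes (10 genes, 5 comparisons, up to 20 settings), 960 kept their side of the threshold, 13 gained a call and 7 lost one. No called change turned direction, and 30 changes that were called in neither fit differed in sign. All 7 losses were of Cyp6t1 in the mutant, out of its 20 settings. Most of the 980 were uncalled as reported, those of the dim Cyp6g2 and Cyp6t3 among them. Leaving out an array of a group not compared keeps the estimate as it was. The 960 are thus no measure of how firm the calls are. The rises of Cyp6w1, Cyp6d5 and Cyp6g1 were called in each of the 20 settings in both genotypes, with log2 changes of 4.25 to 5.17, 2.51 to 2.86 and 1.70 to 2.21. The count of genes called in wild type on phenobarbital was 5 without the dim probe sets, where fewer probe sets were tested. Leaving out 1 array gave 3 to 5 calls in wild type, 4 to 5 in the mutant, 0 to 2 between genotypes on sucrose and 0 on phenobarbital and for the difference between responses. With the replicate block, 3 genes were called in wild type and 4 in the mutant; Cyp6t1 was lost there (limma adjusted p = 0.065), and no other call changed. Over the 6 pairs of groups, correlations of same-numbered arrays ran from -0.67 to 0.65, and in 5 of 18 comparisons of 1 array with another group it correlated best with its own number. With array weights, whose estimation stopped before it converged, 1 mutant array on sucrose took a weight of 104 and no other more than 6.37, and Cyp6v1 was called in the mutant (0.69; limma adjusted p = 0.00013). Cyp6d2 was called in wild type with an intensity trend and robust prior and with quantile normalization (limma adjusted p = 0.047 each), and in both genotypes without dim probe sets (0.026 and 0.044). Cyp6g2 and Cyp6t3 lie where the background model sets the value, and no depth of measurement can be read from their small SDs.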
